A study of Mus musculus with 16 samples.

Results

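The genes described encode subunits of the respiratory chain and of ATP synthase, in the nucleus and in mitochondrial DNA. They were taken by symbol from the deposited count table: names of the Ndufa, Ndufb, Ndufc, Ndufs and Ndufv series, Sdha to Sdhd, Uqcr genes, Cox4 to Cox8 genes, Atp5 genes, and the mt-Nd, mt-Co, mt-Cytb and mt-Atp genes, without 14 entries named as pseudogenes. Subunits under other symbols were left out, among them Cyc1 of complex III and Ndufab1 of complex I. The selection gave 104 of 54052 entries, 91 nuclear and 13 mitochondrially encoded. Of these, 99 passed the filter on low counts and were tested. The other 5 were a duplicate Atp5o entry at 0 in every library and Cox7b2, Cox8c, Ndufa11b and Ndufb4c, with 6 to 88 counts over all 16 libraries.

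The libraries come from a mouse embryonic stem line, ES-E14TG2a, whose genotype is given as WT (wild type), with a short hairpin named shNT or shBeclin1. The shNT hairpin is treated as the control. Beclin1, encoded by Becn1, is part of the lipid kinase complex that starts autophagosomes. The 8 groups hold 2 libraries each and comprise, for either hairpin, stem cells (day 0), embryoid bodies (day 4), and a CM and a CM without GF culture (both day 10). The study set out to find how the knockdown favours cardiac differentiation. All cells carry a hairpin, no library is labelled as a rescue or a second hairpin, and the labels leave GF and the additions to the CM culture undefined. The tissue tag says heart for every library, including the stem cells. The labels do not say that replicates are separate cultures, so p-values measure the spread between these libraries, which may be technical.

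Total counts ran from 14967744 to 21422980 per library. Becn1 fell by 1.20 on the log2 scale at day 0, by 1.01 at day 4, by 0.69 in CM and by 0.50 without GF (edgeR adjusted p of 5.17e-07 or less in each), although 43.9% of its exon bases overlap another annotated gene. In the day 10 shNT libraries 18 cardiomyocyte markers summed to 66.7 to 75.1 CPM (counts scaled to library size by TMM) in CM and 63.0 to 70.3 without GF, against 6067 to 6481 and 4340 to 8003 in shBeclin1. The label cardiomyocyte therefore stood on little marker expression in the shNT libraries. In bulk RNA, fewer cells of a type and less RNA per cell cannot be told apart, here and in every comparison that follows.

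Respiratory complexes I to IV pass electrons from NADH and succinate to oxygen and, except for complex II, pump protons across the inner mitochondrial membrane. Complex V, ATP synthase, uses the proton gradient to make ATP. Most subunits come from nuclear genes used in every tissue, while mitochondrial DNA encodes a small set of hydrophobic core subunits. Complex IV, cytochrome c oxidase, also has subunits with tissue forms: in mouse, Cox6a2, Cox7a1 and Cox8b are the forms of heart and skeletal muscle, and Cox6a1, Cox7a2 and Cox8a their counterparts elsewhere. Heart muscle depends on oxidative phosphorylation, and the muscle forms replace the others as the heart matures.

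Promoters of some complex IV isoforms are shown because heart and ubiquitous forms of the same subunit behaved differently below. Sequences are from RefSeq on GRCm38.p6, from 250 bases before to 50 bases after the annotated start, 5′ to 3′ on the gene's strand. Capitals mark the NRF1 motif (whose letters are the first capital run of Cox6a1), CCGGAAG on either strand (the ETS motif) and TATAAA. Cox6a1 is at chr5:115348909-115349208 (minus strand), Cox7a2 at chr9:79759804-79760103 (minus), Cox7a1 at chr7:30183921-30184220 (plus) and Cox8b at chr7:140900397-140900696 (minus).
Cox6a1: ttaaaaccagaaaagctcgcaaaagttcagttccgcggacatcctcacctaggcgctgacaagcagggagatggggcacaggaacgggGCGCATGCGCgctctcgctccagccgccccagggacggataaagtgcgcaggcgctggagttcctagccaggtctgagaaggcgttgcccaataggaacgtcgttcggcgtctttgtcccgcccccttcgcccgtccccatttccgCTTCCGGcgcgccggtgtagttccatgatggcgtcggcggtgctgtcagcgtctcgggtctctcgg
Cox7a2: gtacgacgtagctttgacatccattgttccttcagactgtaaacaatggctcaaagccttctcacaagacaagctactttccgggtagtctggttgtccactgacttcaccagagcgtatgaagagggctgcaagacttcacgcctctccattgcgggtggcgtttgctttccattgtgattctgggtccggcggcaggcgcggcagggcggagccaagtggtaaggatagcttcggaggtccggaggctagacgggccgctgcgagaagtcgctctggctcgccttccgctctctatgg
Cox7a1: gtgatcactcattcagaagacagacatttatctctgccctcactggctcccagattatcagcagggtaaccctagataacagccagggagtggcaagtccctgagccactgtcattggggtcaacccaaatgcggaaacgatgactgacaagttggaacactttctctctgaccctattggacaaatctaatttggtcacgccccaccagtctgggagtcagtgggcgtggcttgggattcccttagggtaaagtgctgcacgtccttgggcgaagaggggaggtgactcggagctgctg
Cox8b: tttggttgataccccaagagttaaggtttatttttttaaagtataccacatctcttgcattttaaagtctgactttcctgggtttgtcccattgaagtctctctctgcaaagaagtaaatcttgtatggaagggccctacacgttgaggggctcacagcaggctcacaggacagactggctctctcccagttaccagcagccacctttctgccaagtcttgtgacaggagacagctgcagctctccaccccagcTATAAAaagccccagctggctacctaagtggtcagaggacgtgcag
Cox6a1 holds an NRF1 motif and, as its reverse complement, an ETS motif near the start. Cox8b holds TATAAA just past the annotated start, and neither Cox7a gene holds any of the 3. Only the Cox7a genes make a full pair here. Cox8a, not printed, held 2 ETS motifs, so the printed promoters do not set heart against ubiquitous forms. Of the 90 nuclear symbols, 69 had a promoter in the table. Cox6a2 and Cox4i2 were not among them and were not searched. The NRF1 motif was in 7.25% of these against 0.977% of all 27025 promoters of the same length, and the ETS motif in 23.2% against 9.12%. TATAAA was in 11.6% against 14.2%. Both strands were searched for every motif. The E-box CANNTG was in 69.6% against 72.2%, and none of the 69 held the MEF2 motif, which 3.26% of all promoters hold. A match describes letters in this window and not a bound site.

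The heart and muscle forms of complex IV were higher in shBeclin1 than in shNT cells in both day 10 cultures, Cox6a2 and Cox8b from levels at or near 0 and Cox7a1 from about 2 CPM. Cox6a2 (chr7:128205435-128206387, minus strand, 3 exons, GRCm38) was at 0 and 0 CPM in the CM shNT libraries and at 4.24 and 5.73 in the CM shBeclin1 libraries. Without GF it was at 0 and 0.229 CPM in shNT and at 7.0 and 13.6 in shBeclin1. The groups do not overlap in either culture. With 164 counts against none in CM the difference was at least 66.2-fold, taking 3 counts over the group as the floor (edgeR quasi-likelihood test, adjusted p = 7.39e-08). Without GF the log2 fold was 6.36 ± 0.54 (SE, edgeR adjusted p = 4.05e-09). Cox6a2 was also present in day 0 stem cells, at 1.66 and 1.00 CPM in shNT and 0.65 and 0.64 in shBeclin1, and nearly lost at day 4 (0.07 and 0 in shNT, 0 and 0 in shBeclin1). Itgad on the other strand overlaps 10.3% of its exon bases.

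Cox7a1 (chr7:30184144-30186078, plus strand) was lower at day 4 than at day 0 in either hairpin. At day 0 it was at 5.81 and 5.08 CPM in shNT and at 4.03 and 5.45 in shBeclin1, and at day 4 at 1.74 and 2.22 against 0.995 and 1.39. At day 10 it was at 2.01 and 1.92 CPM in CM shNT libraries and 3.47 and 6.14 in CM shBeclin1 libraries. Without GF it was at 2.11 and 2.75 against 3.87 and 7.22. The day 10 hairpin groups do not overlap within a culture, the shNT values lie near those of day 4, and the shBeclin1 values lie around those of day 0. The knockdown differences were 1.29 ± 0.29 on the log2 scale in CM (edgeR adjusted p = 0.000597) and 1.20 ± 0.28 without GF (adjusted p = 0.000556). Each rested on 1 library: without shBeclin1 replicate 2 the edgeR adjusted p was 0.0794 in CM and 0.0782 without GF.

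Cox8b (chr7:140898945-140900446, minus strand) had no count at day 0 or day 4 in either hairpin. In CM it was at 0.0437 and 0 CPM in shNT and 0.579 and 0.702 in shBeclin1, which is 21 counts against 1 and a ratio of 25.4 with a 95% counting interval from 4.09 to 1051 (edgeR adjusted p = 0.000762). Without GF it had 34 counts in shBeclin1 (0.74 and 1.06 CPM) and none in shNT, at least 10.2-fold higher (edgeR adjusted p = 2.33e-05). Its level thus stayed near 1 CPM where it was highest. Only day 10 shBeclin1 libraries held more than 1 count, so Cox8b passed the filter through them alone. The tests of Cox8b are not independent of that selection, and its counts are given as a description.

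**Figure D1:**
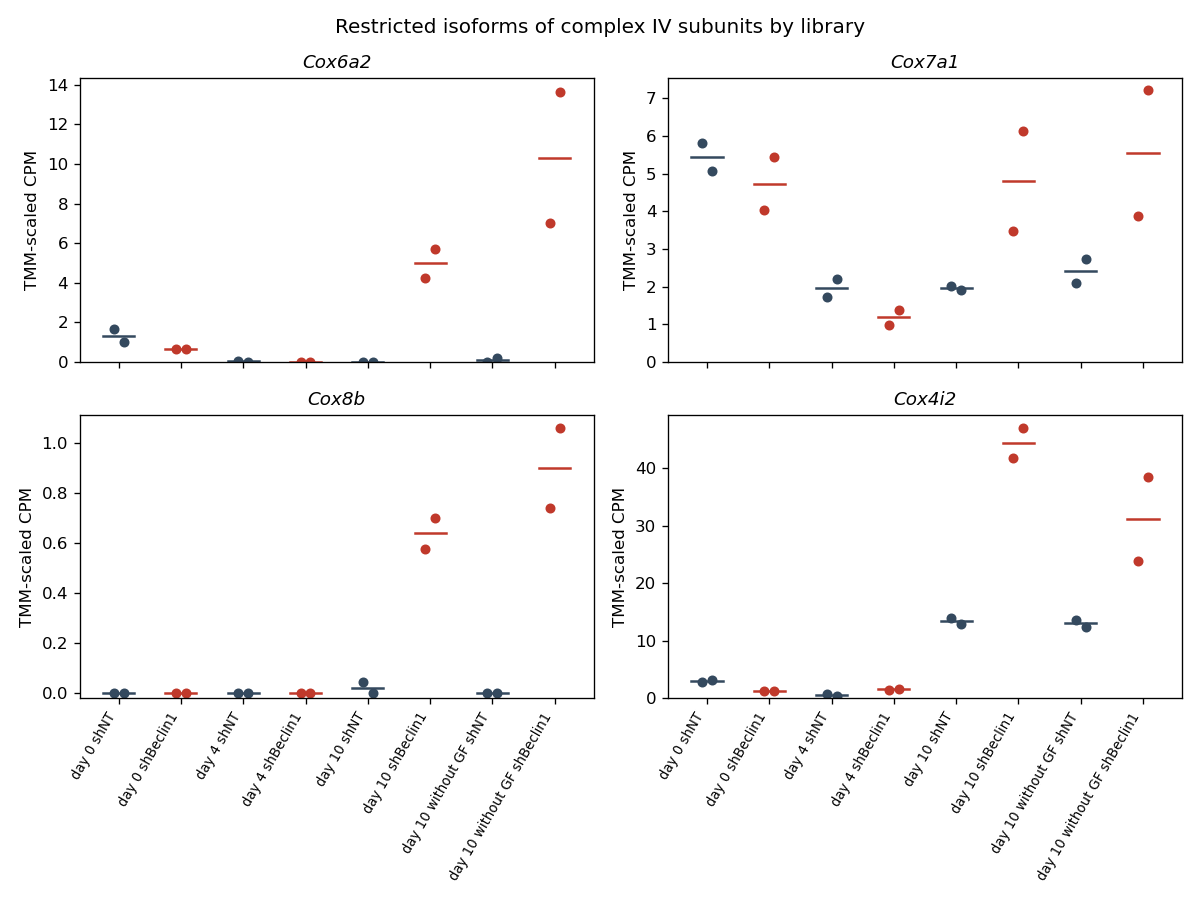
Level in CPM (TMM-scaled) of Cox6a2, Cox7a1, Cox8b and Cox4i2 in each library, by day and culture. Dark points are shNT and red points shBeclin1 libraries, and a short line marks the mean of 2 libraries. The 4 day 10 shBeclin1 libraries lie above the shNT libraries of their culture for all 4 genes, while Cox7a1, Cox4i2 and Cox6a2 were also present at day 0.

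The ubiquitous partners moved less. Knockdown changed Cox6a1 by 0.05 ± 0.14 in CM (edgeR adjusted p = 0.829), Cox8a by 0.22 ± 0.10 (adjusted p = 0.087) and Cox7a2 by 0.41 ± 0.08 (adjusted p = 0.000104), of which Cox7a2 alone passed. Without GF none of the 3 passed (log2 folds of 0.15, -0.01 and 0.18, edgeR adjusted p = 0.385, 0.964 and 0.0542). Per kilobase of merged exon, Cox6a2 made up 8.34% and 9.22% of the Cox6a1 and Cox6a2 sum in CM shBeclin1 libraries and 10.2% and 19.1% without GF. The ubiquitous form was the larger in every library. Cox7a1 made up 15.6% and 15.4% of its pair in day 0 shNT cells and 6.73% and 6.04% in CM shNT. In shBeclin1 it made up 10.4% and 13.6% at day 0 and 9.12% and 12.8% in CM, which overlap. Cox8b reached 1.38% and 1.55% in CM shBeclin1 libraries and 1.76% and 2.35% without GF.

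Other muscle and fat use these isoforms too. Skeletal muscle markers summed to 23.6 to 23.8 CPM in CM shNT and 91.1 to 93.8 in CM shBeclin1. Of the 12 genes of that list 7 were tested, of which in CM 2 rose (Acta1 and Tnni2) and 3 fell (Actn3, Myh3 and Myh8). In CM shBeclin1 3 of the 12, Myod1, Myf6 and Myh8, were at 0. Without GF the sums were 20.4 to 22.2 against 68.1 to 85.0. Brown fat markers summed to 5.34 to 5.88 CPM in CM shNT and 3.47 to 3.62 in CM shBeclin1. The cardiomyocyte sums given above rose with the isoforms, and fibroblast and smooth muscle markers rose too, from 1954 to 2118 CPM to between 4245 and 4495 in CM and from 2022 to 2042 to between 4347 and 4591 without GF. The part of each cell type in the isoform levels was not tested.

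Of the isoforms tied to other tissues or to oxygen supply, Cox4i2, a form of the Cox4 subunit known from lung and low oxygen, was the most changed. Its day 10 levels were 14.0 and 13 CPM in CM shNT and 41.7 and 46.9 in CM shBeclin1, and without GF 13.7 and 12.4 against 23.9 and 38.4. The groups do not overlap, and knockdown raised it by 1.71 ± 0.15 in CM (edgeR adjusted p = 1.27e-10) and by 1.26 ± 0.15 without GF (adjusted p = 4.75e-08). Its share of the Cox4 pair was 10.3% and 10.1% in CM shNT and 23.1% and 23.2% in CM shBeclin1, or 5.5% and 5.42% against 13.2% and 13.3% when counts are not divided by length. At day 0 it was lower in shBeclin1, 1.37 and 1.35 CPM against 2.94 and 3.14 (log2 fold -1.16 ± 0.33, edgeR adjusted p = 0.0191), and at day 4 higher, 1.53 and 1.67 against 0.766 and 0.471 (1.37 ± 0.46, adjusted p = 0.0325). Both early calls were lost whichever of the 4 libraries was left out, with edgeR adjusted p from 0.103 to 0.137 at day 0.

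Cox6b2, the testis form of Cox6b, behaved otherwise. It was at 64.6 and 52.0 CPM in day 0 shNT cells and at 26.9 and 25.4 in CM shNT against 29.5 and 31.2 in CM shBeclin1 (log2 fold 0.21, edgeR adjusted p = 0.0923). Without GF it was at 36.9 and 39.2 in shNT and at 16.9 and 18.8 in shBeclin1, a fall by 1.09 ± 0.10 on the log2 scale (edgeR adjusted p = 1.03e-11). The knockdown effect differed between the cultures by 1.30 on the log2 scale in the test of that difference. Neural markers moved with it without GF, at 578 CPM in both shNT libraries and 111 to 117 in shBeclin1, against 135 to 136 and 101 to 104 in CM. Pluripotency markers fell there too, from between 316 and 339 CPM to between 85.9 and 104, against 222 to 225 and 182 to 187 in CM. At day 4 neural markers were at 179 to 182 CPM in shNT and 139 to 147 in shBeclin1. Cox6b2 averaged only 13.9 and 11.8 CPM there. The part of these cell types was not tested.

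Ndufa4l2, a relative of the complex IV subunit Ndufa4 induced by low oxygen, was at 32.5 and 27.4 CPM in CM shNT and 23.1 and 28.1 in CM shBeclin1, where the groups overlap. Without GF it was at 9.98 and 11 against 5.86 and 12. It was higher in CM than without GF by 1.51 on the log2 scale in either hairpin. At day 0 it was at 22.3 and 23.5 CPM in shNT and 10.9 and 12.1 in shBeclin1 (log2 fold -1.0 ± 0.26, edgeR adjusted p = 0.0304), a call that leaving out any of the 4 libraries ended (adjusted p from 0.129 to 0.190).

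The 76 tested ubiquitous nuclear subunits showed few knockdown differences in stem cells and many at day 10, nearly all upward and small. Calls rest on edgeR p-values adjusted by Benjamini and Hochberg over all 19141 genes tested, with a threshold of 0.05. Among all 99 tested members 6 rose and 3 fell at day 0, where 13.3% of all genes were called (5.79% higher and 7.55% lower). At day 4, 24 rose and 1 fell against 20.8% of all genes called. Blood and endothelial markers also rose there, from 30.7 to 33.8 CPM in shNT to between 159 and 160.1 in shBeclin1. Endoderm and liver markers fell, from 66.2 to 70.3 CPM to between 29.9 and 37.5. The part of these cell types was not tested. In CM 59 rose and none fell, against 38.4% of all genes called in either direction and 19.1% called lower. Without GF 47 rose and 4 fell, against 54.7% of all genes called (27.4% higher and 27.3% lower), so there the share of members called was near the background and the direction was not. The day 0 and day 4 counts depended on single libraries. At day 0 the count of 9 became 19 when shNT replicate 2 was left out, and 1 or 2 when shBeclin1 replicate 1 or 2 was. At day 4 the count of 25 became 5 or 7 without shNT replicate 1 or 2 and 9 or 12 without shBeclin1 replicate 1 or 2.

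The median log2 fold of the 76 ubiquitous subunits was -0.01 at day 0, 0.17 at day 4, 0.29 in CM and 0.18 without GF, beside medians of all genes of -0.01, 0.02, -0.02 and -0.01. Of the 76, 73 had a positive fold at day 4, 74 in CM and 66 without GF. These signs are not separate observations, since the subunits also shifted together between replicates. Relative to the day 0 shNT mean, the complex I median was 0.12 in day 0 shNT replicate 1 and -0.13 in replicate 2. For complex V it was 0.11 and -0.12. In day 4 shNT the replicates were closer, at 0.05 and 0.13 for complex I. They were called higher in 4, 23, 50 and 40 cases and lower in 1, 1, 0 and 2. Scaled by total counts instead of TMM, the members split 2 higher to 7 lower at day 0 and 8 to 3 at day 4, in place of 6 to 3 and 24 to 1. In CM they split 46 to 0 with total counts. The 59 that rose in CM were 50 ubiquitous subunits, 5 mitochondrial genes and the 4 isoforms Cox6a2, Cox7a1, Cox8b and Cox4i2. Of these isoforms, Cox8b passed the filter only through day 10 shBeclin1 libraries.

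**Figure D2:**
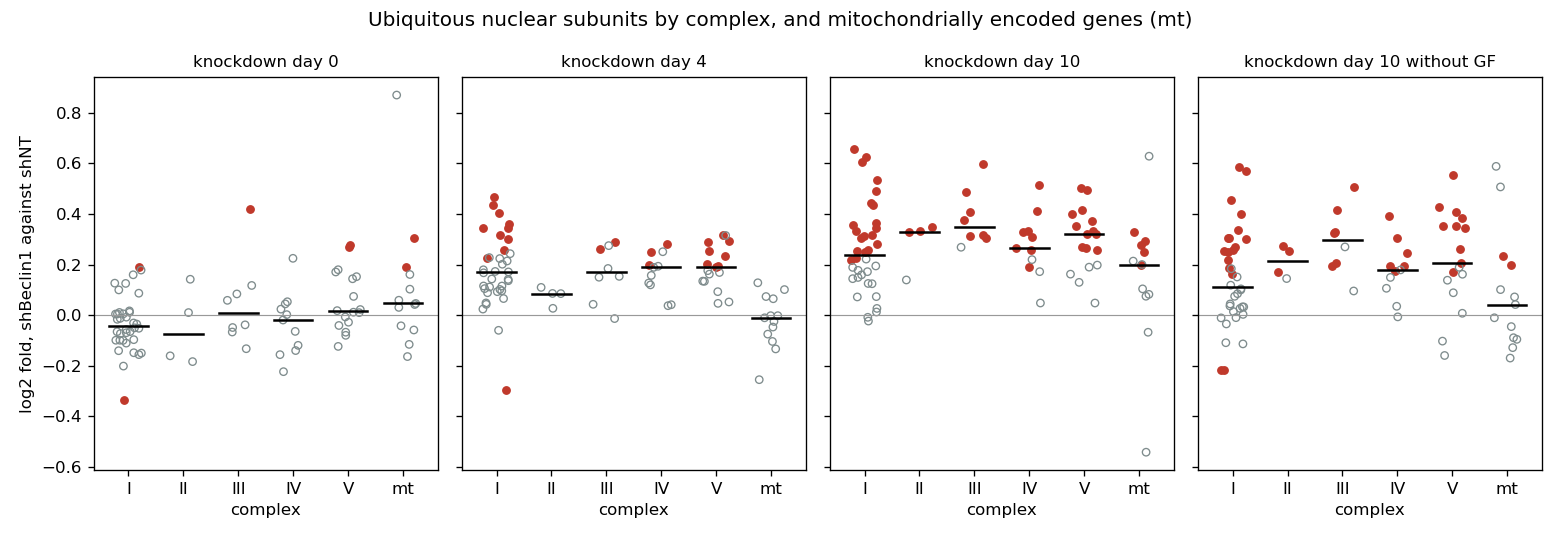
Log2 fold change, shBeclin1 over shNT, of the 76 ubiquitous nuclear subunits by complex and of the 13 mitochondrially encoded genes in the 4 knockdown comparisons. Filled red points passed the adjusted p threshold, open points did not, and a black line marks the median. The complexes have medians between 0.24 and 0.35 in CM.

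The counts by complex that follow stand against 38.4% of all genes called in CM (19.2% higher) and 54.7% without GF (27.4% higher). Complex I takes electrons from NADH. In CM 20 of its 36 ubiquitous nuclear subunits taken by symbol rose (median log2 fold 0.24). These were 6 of the 7 core and 14 of the 29 accessory ones. Without GF 15 rose and 2 fell, a share of calls below that of all genes. There the core subunits kept a median of 0.27, with 6 of 7 called higher, and the accessory subunits had 0.08, with 9 higher and 2 lower of 29. Ndufv3, an accessory subunit of the NADH-oxidizing module, was at 75.2 and 74.8 CPM in CM shNT and 111 and 126 in CM shBeclin1 (0.66 ± 0.08, edgeR adjusted p = 8.57e-09). Its direction at day 4 was the opposite, with 51.2 and 53.5 against 43.8 and 41.5 (-0.30 ± 0.09, adjusted p = 0.0124). That early call ended without shNT replicate 2 (edgeR adjusted p = 0.123) or shBeclin1 replicate 2 (0.135). Ndufb9, an accessory subunit of the membrane arm, was at 52.2 and 51.2 CPM in shNT and 71.8 and 83.3 in shBeclin1 without GF (0.59 ± 0.08, edgeR adjusted p = 7.79e-08), with 19.5% of its exon bases shared with Gm49356. The 2 that fell without GF were Ndufs4, an accessory subunit needed for assembly (-0.22), and Ndufa7 (-0.22). The call of Ndufa7 ended without shNT replicate 2 (edgeR adjusted p = 0.120) and that of Ndufs4 without shNT replicate 1 (0.0716) or shBeclin1 replicate 1 (0.0867).

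Complex II, succinate dehydrogenase, has 4 subunits, all nuclear and shared with the citric acid cycle, and 3 of them rose in CM (median 0.33) and 3 without GF (0.21). Sdhd, which anchors the complex in the membrane, was at 96.6 and 98.2 CPM in CM shNT and 119 and 129 in CM shBeclin1, without overlap (0.35 ± 0.07, edgeR adjusted p = 5.11e-05). Without GF it was at 112 and 117 against 135 and 142 (0.27 ± 0.07, adjusted p = 0.000571).

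Complex III passes electrons from ubiquinol to cytochrome c. Of its 8 nuclear subunits taken by symbol, 7 rose in CM (median 0.35) and 6 without GF (0.30). Uqcr10, a small subunit, was at 30.7 and 30.0 CPM in CM shNT and 43.8 and 47.9 in CM shBeclin1 (0.60 ± 0.10, edgeR adjusted p = 5.92e-06). Uqcrc1, a core protein, was at 62.2 and 65.2 against 88.6 and 92.6 without GF (0.51 ± 0.07, adjusted p = 2.24e-07). Uqcrh, the hinge protein between cytochrome c1 and c, was already higher at day 0, at 83.8 and 84.1 in shBeclin1 against 64.7 and 60.8 in shNT (0.42 ± 0.07, edgeR adjusted p = 0.000162), a call that held without any 1 of the 4 libraries.

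In complex IV 8 of 11 ubiquitous subunits rose in CM (median 0.27) and 6 without GF (0.18). Cox6b1, which faces cytochrome c, rose in both, but its CM call ended without shBeclin1 replicate 2 (edgeR adjusted p = 0.0562) and the other without shNT replicate 1 (0.0750). Cox7a2l, which joins complexes III and IV into supercomplexes, was at 198 and 199 CPM in shNT and 171 and 176 in shBeclin1 without GF, a fall by 0.19 ± 0.06 on the log2 scale (edgeR adjusted p = 0.0103), and differed by 0.02 in CM.

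In complex V 12 of 17 subunits rose in CM (median 0.32) and 10 without GF (0.21). Atp5o, which ties the stator stalk to the catalytic head, was at 110 and 103 CPM in CM shNT and 147 and 155 in CM shBeclin1 (0.50 ± 0.07, edgeR adjusted p = 1.87e-07). Since 35.6% of its exon bases lie under genes of the other strand, its counts are uncertain. Atp5g1, Atp5g2 and Atp5g3 encode the same mature c subunit of the proton-driven ring, and differed from each other. Atp5g3 was at 255 and 262 CPM in day 4 shNT and 332 and 312 in day 4 shBeclin1 (0.32 ± 0.07, edgeR adjusted p = 0.000449), and this held without any 1 library. Without GF it was at 145 and 147 against 207 and 220 (0.55 ± 0.07, adjusted p = 1.06e-08). Atp5g2 was at 134 and 136 against 163 and 182 in CM (0.35 ± 0.07, edgeR adjusted p = 7.33e-05) but at 149 and 152 against 135 and 134 without GF (-0.16, adjusted p = 0.0518). Atp5g1 was the lowest of the 3 in counts, at 20.2 and 19.9 against 22.6 and 25.6 in CM.

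Across time, the ubiquitous subunits rose to day 4 in part and mostly fell from day 4 to CM. The folds between days and cultures that follow passed the edgeR threshold unless an adjusted p above it is printed. From day 0 to day 4 in shNT 43 members rose and 27 fell, against 66.9% of all genes called, so the share called was near the background. With total counts the split was 25 to 34. Complex V rose most often, with 13 of 17 higher and 1 lower (median 0.43), and complex I was mixed, with 13 higher and 11 lower. Atp5k, a small subunit of the membrane part, was at 23.8 and 17.1 CPM at day 0 and 47.1 and 51.8 at day 4 (1.28 ± 0.15). Uqcrh went from 64.7 and 60.8 to 167 and 176 (1.45 ± 0.07). Sdhd went from 70.0 and 59.6 to 135 and 137 (1.07 ± 0.07). In shBeclin1 56 members rose and 18 fell, against 67.8% of all genes called (32.2% lower).

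From day 4 to day 10 CM 8 members rose and 74 fell in shNT, against 70% of all genes called and 33.2% called lower. In shBeclin1 13 rose and 67 fell, against 72.4% and 35.1%. The median over the 76 ubiquitous subunits was -0.49 in shNT and -0.32 in shBeclin1, with complex IV at -0.76 and -0.59 and complex V at -0.59 and -0.44, beside medians of all genes of 0.07 and 0.02. Using total counts shifted the median of all genes in the time comparisons by -0.12 from day 0 to day 4 in either hairpin and by 0.20 (shNT) and 0.16 (shBeclin1) from day 4 to day 10. With total counts 11 members rose and 57 fell in shNT, and 17 rose and 52 fell in shBeclin1. Uqcrq, a small subunit of complex III, went from 44.2 and 43.2 CPM at day 4 to 18.0 and 16.3 in CM shNT (-1.34 ± 0.10). Cox5a, a subunit on the matrix side of complex IV, went from 117 and 116 to 56.8 and 54.3 (-1.06 ± 0.07). Sdha, the flavoprotein of complex II, went from 250 and 255 to 155 and 152 (-0.72 ± 0.06). Ndufv3 rose, by 0.52 ± 0.08 in shNT and 1.47 ± 0.08 in shBeclin1.

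CM shNT was the group with the lowest mean for 47 of the 76 subunits, and day 4 shBeclin1 the highest for 43. The ratio of the highest to the lowest group had a median of 1.78 and reached 3.88 for Uqcrh. Pluripotency markers fell from between 6083 and 6561 CPM at day 0 to 222 to 225 in CM shNT over the same span, and the part of cell type in these levels was not tested.

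**Figure D3:**
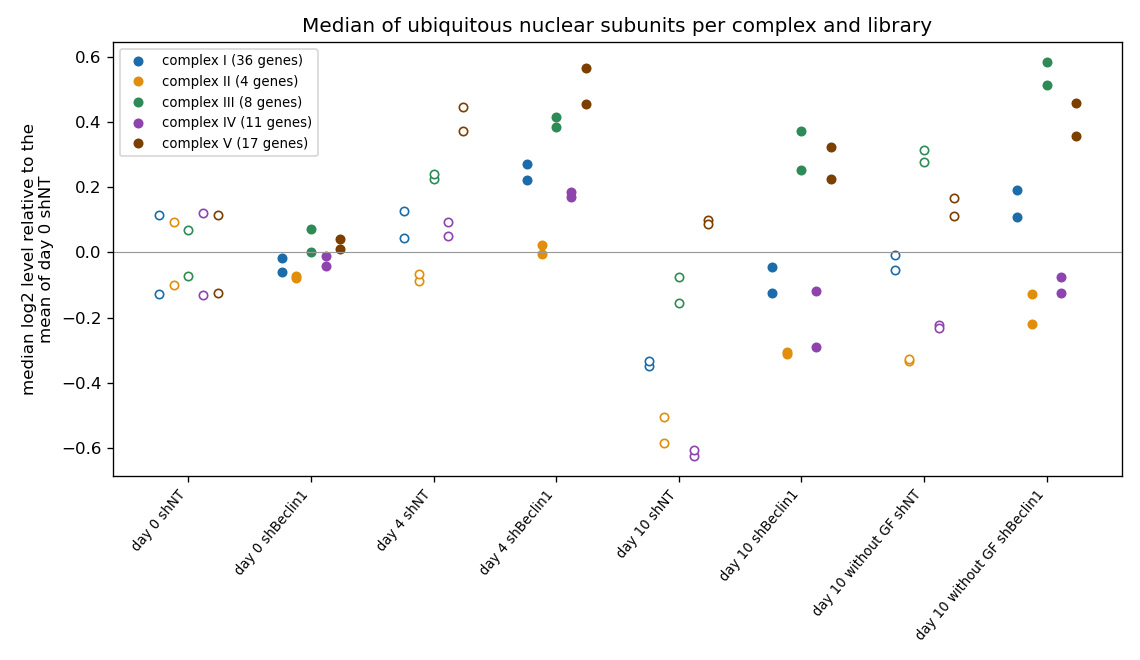
Median log2 level of the ubiquitous nuclear subunits of each complex in each library, relative to the mean of the day 0 shNT libraries. Open points are shNT and filled points shBeclin1 libraries. In CM the complex IV median is -0.63 and -0.61 in shNT and -0.29 and -0.12 in shBeclin1, and the complex III median -0.15 and -0.08 against 0.25 and 0.37.

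Most members had lower TMM-scaled levels in CM than in CM without GF, in either hairpin. In shNT 2 members were higher and 66 lower in CM, against 52.8% of all genes called (25.9% lower), and the ubiquitous subunits had a median of -0.30. In shBeclin1 4 were higher and 54 lower, against 37% called (20.3% higher and 16.7% lower), with a median of -0.22. That count became 22 without CM shBeclin1 replicate 1 and 33 without replicate 2 of shBeclin1 without GF. Ndufs8, an iron-sulfur core subunit of complex I, was at 19.0 and 20 CPM in CM shNT and at 33.7 and 32.8 in shNT without GF (-0.77 ± 0.09). Uqcrc1 went the other way in shNT, at 79.8 and 73.9 in CM and 62.2 and 65.2 without GF (0.27 ± 0.07). The day 10 cultures also differed in blood and endothelial markers, at 822 to 825 CPM in CM shNT and 78.7 to 87.1 in shNT without GF. Neural markers were at 135 to 136 CPM in CM shNT and 578 in shNT without GF. The part of these cell types was not tested.

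Mitochondrial DNA is transcribed as long units that are then cut, and its messages encode 7 subunits of complex I, 1 of complex III, 3 of complex IV and 2 of complex V. The 13 genes together took 2.95% and 2.99% of counts in day 0 shNT libraries and 3.10% and 3.09% in day 0 shBeclin1. At day 4 they took 3.26% and 3.23% against 3.11% and 3.21%, in CM 1.54% and 1.52% against 1.60% and 1.70%, and without GF 2.15% and 2.28% against 2.25% and 2.17%. Both day 10 cultures lie below the earlier days in both hairpins, with no overlap, and CM lies below CM without GF. The nuclear members took 0.714% to 1.04%.

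The genes did not move together between day 0 and day 4. In shNT mt-Nd1 went from 2559 and 2501 CPM to 5665 and 5720 (1.17 ± 0.07), mt-Nd2 from 1370 and 1398 to 3659 and 3656 (1.40 ± 0.08), and mt-Cytb from 3470 and 3425 to 5842 and 5772 (0.75 ± 0.06). By contrast mt-Nd4 was at 2351 and 2172 against 2233 and 2269 (-0.01, edgeR adjusted p = 0.94), and mt-Co1 was at 14922 and 15564 against 13454 and 13272 (-0.19), a call that ended without day 4 shNT replicate 2 (adjusted p = 0.0518). From day 4 to CM all 13 fell in both hairpins. In shNT the falls were 1.70 for mt-Nd1, 1.62 for mt-Nd4, 1.61 for mt-Cytb and 0.94 for mt-Co1, and in shBeclin1 mt-Nd1 fell by 1.73, mt-Nd4 by 1.22 and mt-Co1 by 0.74 on the log2 scale.

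Knockdown raised 5 of the 13 in CM, or 38.5%, beside 38.4% of all genes called and 19.2% called higher. Without GF it raised 2 of 13, a share below the 54.7% of all genes called. mt-Nd5 was at 1271 and 1324 CPM in CM shNT and 1587 and 1669 in CM shBeclin1 (0.33 ± 0.06, edgeR adjusted p = 3.66e-05). mt-Nd4 was at 723 and 738 against 880 and 912 (0.29 ± 0.06, adjusted p = 0.000133), and mt-Cytb at 1912 and 1884 against 2193 and 2406 (0.28 ± 0.06, adjusted p = 0.000245). These groups do not overlap. The rise of mt-Nd6 (0.25) ended without shBeclin1 replicate 2 (edgeR adjusted p = 0.121), and that of mt-Co1 (0.20) without shNT replicate 1 (0.144) or shBeclin1 replicate 2 (0.0689). mt-Nd1 and mt-Nd2 changed by 0.07 and 0.08 and were not called. Without GF mt-Nd6 (0.23 ± 0.07, edgeR adjusted p = 0.00379) and mt-Nd5 (0.20) were called, the latter not without shNT replicate 2 (adjusted p = 0.0851).

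Per kilobase, mt-Co1 ranged from 4419 to 11094 CPM over the 16 libraries and mt-Nd4 from 525 to 1706, while mt-Co2 ranged from 52.9 to 124.5, mt-Co3 from 16.1 to 42.2, mt-Atp6 from 18.7 to 50.1 and mt-Atp8 from 2.13 to 13.5. Except mt-Atp8, the low genes have near-identical annotated copies in the nuclear genome, such as Gm28661 on chromosome 1, which matches mt-Co2 at 100%. For mt-Atp8 no annotated copy was found, which does not exclude an unannotated one. mt-Co1, mt-Nd4 and mt-Nd5 also have copies of at least 95% identity over at least 50% of their length. Such copies had counts of their own in the table. Levels of mt-Co2, mt-Co3, mt-Atp6, mt-Nd3 and mt-Nd4l are therefore uncertain. That of mt-Atp8, with 7 to 41 counts per library, is uncertain as well.

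**Figure D4:**
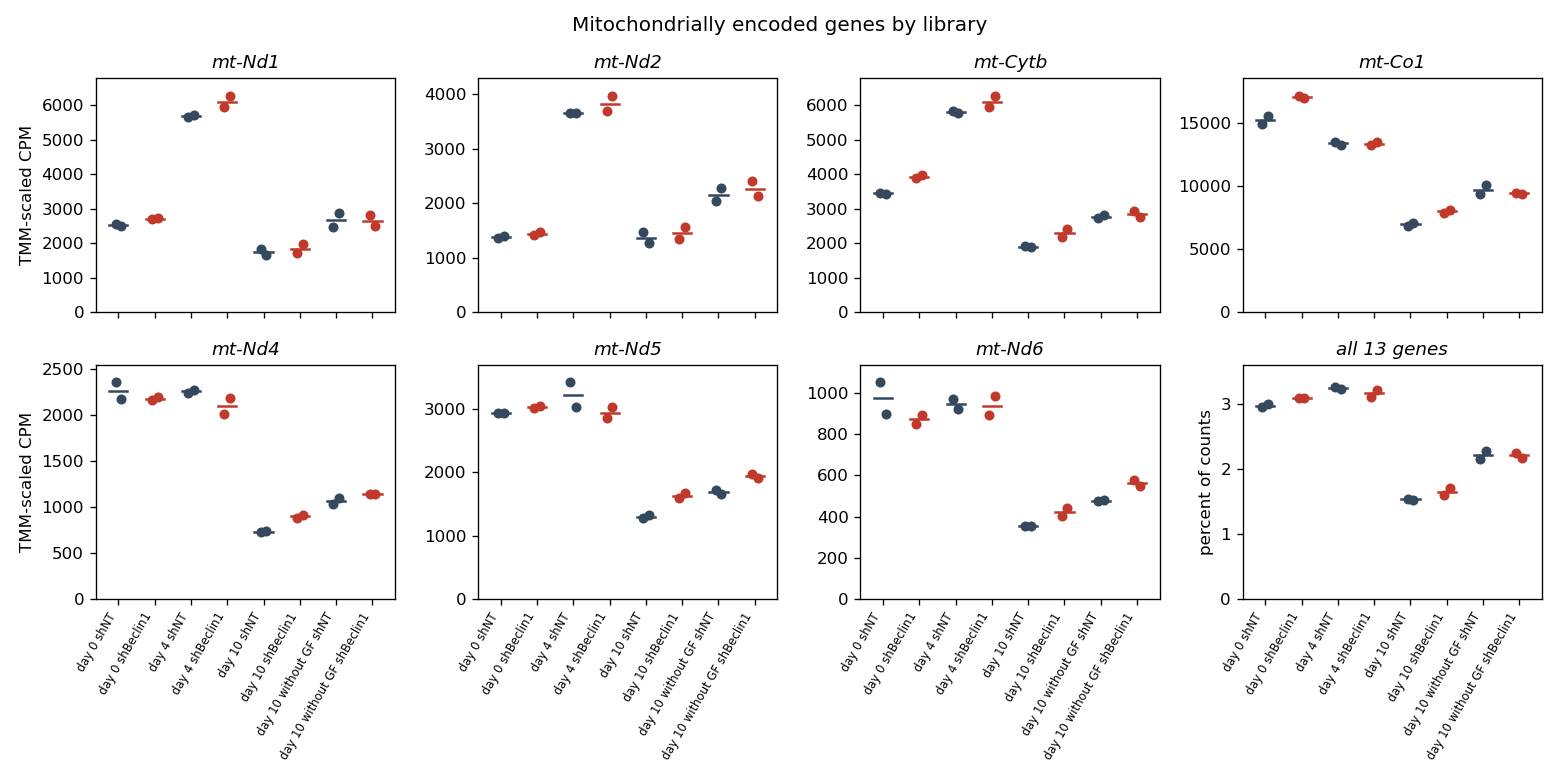
Level in CPM of 7 mitochondrially encoded genes and the percent of counts taken by all 13, in each library. From day 0 to day 4 mt-Nd1 and mt-Nd2 rise in both hairpins while mt-Nd4 and mt-Co1 do not, and all are lower in CM than at day 4.

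Genes of related function were counted the same way, beside 38.4% of all genes called in CM and 54.7% without GF, with no test between lists. The citric acid cycle feeds the chain with NADH, and its list also held genes of pyruvate entry (Pdha1, Pdhb, Dlat and Pcx). Of its 17 tested genes, 14 rose and 1 fell in CM (median 0.29) and 13 rose and 2 fell without GF (0.32). A further list held cytochrome c genes, the complex III partner Cyc1, Hccs, and carriers and channels of the mitochondrial membranes. Of its 12 genes, 8 rose and 2 fell in CM and 8 rose without GF. Slc25a4, the heart and muscle ADP/ATP carrier, was at 435 and 422 CPM in CM shNT and 604 and 638 in CM shBeclin1 (0.54 ± 0.07, edgeR adjusted p = 2.22e-07).

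Factors for assembly and for mitochondrial DNA expression were mostly not called in CM. None of 14 complex I assembly genes rose in CM and 1 fell, and without GF 6 fell. Of 21 complex IV assembly genes 3 rose in CM, and of 14 assembly genes of complexes II, III and V 2 rose and 1 fell. Of 20 genes of mitochondrial DNA expression 3 rose and 2 fell in CM (median -0.03), and 1 rose and 9 fell without GF (-0.19). Tfam, which packages and transcribes mitochondrial DNA, was at 121 and 122 CPM in shNT and 94.3 and 87.6 in shBeclin1 without GF (-0.42 ± 0.06, edgeR adjusted p = 5.45e-07). Among 17 regulators 6 rose and 4 fell in CM and 11 rose and 1 fell without GF. Ppargc1a, a coactivator of mitochondrial genes, was at 2.14 and 1.92 CPM in CM shNT and 12.7 and 12.2 in CM shBeclin1 (2.60 ± 0.20, edgeR adjusted p = 3.18e-13), and at 4.46 and 5.44 against 28.3 and 36.7 without GF. Mef2c, a muscle transcription factor, was at 79.2 and 80.3 against 353 and 352 in CM (2.15 ± 0.08, adjusted p = 4.63e-18). Without GF the rule for named genes picked Mef2c and Esrrb, whose values there are not given. Ppargc1a without GF was chosen after its values were seen. Values of the regulators that fell are not given either.

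The knockdown effect itself differed between stages for few members. Between day 0 and day 4 10 members had a higher effect at day 4, against 14.8% of all genes called (7.93% in that direction). Between day 4 and CM 20 had a higher effect in CM, against 26.1%, and 11 had a higher effect in CM than without GF, against 34.4%. None was called in the other direction, where 6.9%, 13.9% and 18.2% of all genes were. The first count was 4 without day 0 or day 4 shNT replicate 1, 40 without day 0 shNT replicate 2, 6 without day 0 shBeclin1 replicate 1 or day 4 shNT replicate 2, and 5 without day 0 shBeclin1 replicate 2 or day 4 shBeclin1 replicate 1. The second was 12 without day 4 shNT replicate 2 or day 4 shBeclin1 replicate 1, 13 without day 4 shBeclin1 replicate 2 or CM shNT replicate 1, and 10 without CM shBeclin1 replicate 2. The last was 5 without CM shNT replicate 1, 17 without CM shBeclin1 replicate 1, and 6 without CM shBeclin1 replicate 2 or shNT without GF replicate 2.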

How the data were processed

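RNA was measured by sequencing in 16 libraries, 2 for each of 8 groups. Per the labels, rRNA was depleted and a kit that marks strand was used, while the molecule tag says polyA RNA, so the RNA fraction is not settled. The values are whole-number counts by gene symbol in a single table deposited by the authors. Per the submitters' processing notes Trimmomatic 0.36, featureCounts, Subread 1.5.1, SAMtools and mm10 were used. The role of each tool, the aligner, the gene models and whether counting used strand are details not given in the sources used here. Thus reads of overlapping genes on opposite strands may not be separated.

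The members and gene lists were chosen with earlier results of these data known. The analysis used edgeR 4.0.16 under R 4.3.3. The function filterByExpr kept 19141 of 54052 entries, libraries were scaled by TMM (factors 0.884 to 1.078), and a robust quasi-likelihood model with 1 mean per group was fitted to all 16 libraries, with 8 residual degrees of freedom and a common biological coefficient of variation of 5.38%. P-values were Benjamini-Hochberg adjusted over all genes tested, with a threshold of 0.05. Values by library are TMM-scaled CPM. The standard error of a log2 fold comes from the F statistic. Intervals and floors on counts cover counting error only. With 2 libraries a group, an exact permutation test of single values could not go below 0.333 and was not used. Isoform shares used merged exon lengths from GENCODE vM21 (GRCm38), and near-identical copies were sought with blastn 2.17.0 at 95% identity over 50% of a transcript, which 7 nuclear members had. More than 10% of the exon bases of 12 members overlap another gene. On data simulated for the CM knockdown comparison only, the model recovered 100% of 2-fold changes with the right sign. It recovered 20% of 1.25-fold changes, which are about as small as those of many subunits. Of its calls 10.6% were false, more than the threshold of 0.05 allows. Single calls near the threshold and the counts of members called are therefore uncertain.

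The genes named are the isoform pairs, the c subunit genes, the mitochondrially encoded genes, the called subunit with the largest rise and fall per complex and comparison (mean log2 CPM of at least 2, replicates not overlapping), up to 2 called genes per related list and knockdown comparison with the smallest adjusted p, and Becn1. Ndufs4, Cox7a2l and Ppargc1a without GF were chosen after their values were seen. Alternatives were total counts or RLE scaling, scaling without mitochondrial genes, other filters, a replicate block, only the groups compared, DESeq2 1.42.0 and leaving out each library. The replicate differences of the 28 pairs of groups correlated at -0.05 to 0.05 across genes, so no shift shared by replicate number was seen. This cannot tell whether libraries of equal number were handled together, which the labels do not say. No batch term could be fitted because the batch tag repeats the group.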

Additional observations from a re-analysis of the deposited data

Results flagged for a closer look

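Among the genes chosen by the rule for named genes, which are part of the 10, 20 and 11 members called for a difference of the knockdown effect, 22 results were picked out. In each the knockdown effect differed between stages or cultures by edgeR's test of that difference. A positive difference means a higher effect at the later day, or in CM than without GF. None of these differences was explained or traced further.

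Between day 0 and day 4 the log2 difference was 2.53 ± 0.56 (SE, edgeR adjusted p = 0.0022) for Cox4i2, 1.70 ± 0.47 (0.034) for Ndufa4l2 and 0.42 ± 0.10 (0.00307) for Ndufa4. It was 0.64 ± 0.13 (edgeR adjusted p = 0.000425) for Ndufa5, an accessory subunit of complex I, 0.32 (0.0214) for Uqcrc1 and 0.31 (0.0328) for Atp5md, a small subunit of complex V. The calls of Ndufa4l2, Uqcrc1 and Atp5md were lost in several fits that left out 1 library, with adjusted p of up to 0.147 for Ndufa4l2 (without day 4 shBeclin1 replicate 1), 0.166 for Uqcrc1 and 0.218 for Atp5md (both without day 0 shNT replicate 1).

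Between day 4 and CM it was 2.00 ± 0.49 for Cox7a1, 0.44 for Cox6b2, 0.40 for mt-Nd4, 0.46 for mt-Nd5 and 0.26 for mt-Nd6. For nuclear subunits of the complexes it was 0.95 ± 0.12 for Ndufv3, 0.30 for Sdhb, 0.33 for Uqcrc2, 0.48 for Cox5b and 0.40 for Atp5a1. Leaving out 1 library ended the calls of Cox6b2 (edgeR adjusted p up to 0.206 without day 4 shNT replicate 2), mt-Nd6 (up to 0.250 without day 4 shBeclin1 replicate 1) and Sdhb (up to 0.189 without CM shNT replicate 2).

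Between CM and CM without GF it was 1.30 ± 0.14 for Cox6b2 (edgeR adjusted p = 1.74e-09), 0.51 ± 0.10 for Atp5g2, 0.47 for Ndufc2, 0.28 for Uqcrc2, 0.24 for mt-Co1 and 0.235 for mt-Cytb. Leaving out 1 library ended the calls of mt-Cytb (adjusted p up to 0.211 without CM shBeclin1 replicate 2), mt-Co1 (up to 0.200 without shNT without GF replicate 2) and Uqcrc2 (up to 0.0641 without CM shNT replicate 1).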

How the results depend on the processing

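Members called were recounted under each alternative. With the groups compared alone in the fit the counts were 3 at day 0, 48 at day 4 and 33 for the change of knockdown effect from day 4 to CM, and with total counts 11 at day 4, in place of 9, 25, 20 and 25. Mean shares in the shBeclin1 libraries, not divided by length, were 6.52% (CM) and 6.07% (without GF) for Cox7a1 and 0.859% and 1.20% for Cox8b. Leaving out 1 library at a time gave 1 to 19 calls at day 0, 5 to 12 at day 4, 40 to 67 in CM and 35 to 51 without GF. Between days it gave 58 to 71 and 74 to 77 in shNT and 67 to 69 and 71 to 81 in shBeclin1, between cultures 54 to 62 (shNT) and 22 to 62 (shBeclin1), and for differences of the knockdown effect 4 to 40, 10 to 21 and 5 to 17. The replicate block gave 12, 24, 60 and 52 calls in the 4 knockdown comparisons, with no evidence that the numbers pair libraries. DESeq2 gave 9, 18, 55 and 47. Of 298 called results of single genes, 87 lost the call in some setting and 2 changed sign with total counts, Cox7b from day 0 to day 4 (-0.00053) and Cox4i1 from day 4 to CM (0.0020), both in shBeclin1. The cause of these changes was not tested. Over all genes, total counts changed the split of calls at day 0 to 649 higher and 2065 lower, at day 4 to 1439 and 2333, in CM to 2795 and 4807, between cultures in shBeclin1 to 3087 and 4221, and for its interaction with knockdown to 2549 and 4004. Between days it gave 5492 and 7285, then 8246 and 5111, in shNT, and 5796 and 7160, then 7998 and 5779, in shBeclin1. Genes below about 1 CPM, such as Cox8b, rest on 21 to 34 counts in the higher group.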

Other observations

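Ndufb11b, a copy related to the complex I subunit gene Ndufb11, was at 9.83 and 10.9 CPM in day 0 shNT libraries and 10.5 and 11.7 in day 0 shBeclin1 libraries, and at no more than 0.465 CPM in any library from day 4 on. The 5 entries not tested had 88 counts (Ndufb4c), 36 (Cox7b2), 7 (Cox8c), 6 (Ndufa11b) and 0 (the duplicate of Atp5o) over the 16 libraries.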
